A study of Mus musculus with 4 samples.

Results

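Glycolysis and the tricarboxylic acid (TCA) cycle were followed through 33 genes in endothelial cells of the neonatal mouse ear. The genes were chosen by symbol, 20 of glycolysis with its glucose and lactate transporters and 13 of pyruvate entry and the TCA cycle, out of 31054 features in the single-cell matrices. The 33 symbols fall on 34 matrix rows, because Aldoa is listed under 2 gene identifiers, of which the one with UMIs was used. No measured value took part in the choice.

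The cells came from ears of C57BL/6 mice at postnatal day 8 and were sorted alive as CD31+ and Cdh5CreERT2-Rtom+, a red reporter that recombination under the endothelial Cdh5 promoter switches on. The 2 mRNA libraries are labelled as biological replicates of 1 condition. Comparisons are therefore between classes of endothelial cell found in both, with 2 libraries behind each p-value. The sources used here state neither the animals pooled per library nor how the recombinase was induced. Antibody tag libraries of the same cells were not used here.

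In glycolysis, glucose enters through transporters such as Slc2a1, is phosphorylated and split at the cost of ATP, and is then turned into pyruvate by the steps that return ATP. Lactate dehydrogenase turns pyruvate into lactate, whereas the pyruvate dehydrogenase complex sends it into the mitochondrial TCA cycle. Endothelial cells are known for making most of their ATP by glycolysis even where oxygen is plentiful, and the regulator Pfkfb3 has been tied to vessel sprouting in mice.

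Promoters of members on which the results turn are shown first, since these genes rose together in dividing cells or differed between vessel classes. The windows hold 300 bases, from 250 before to 50 after a transcript start of RefSeq on GRCm38.p6, and capitals mark the letters ACGTG (the core letters of the hypoxia response element) and CCAAT on either strand. Where a gene has several windows, the most upstream is printed. They are Ldha at chr7:46845554-46845853 (+ strand), Pgk1 at chrX:106186850-106187149 (+ strand), Gapdh at chr6:125165724-125166023 (- strand), Pkm at chr9:59656326-59656625 (+ strand) and Fh1, the fumarase of the TCA cycle, at chr1:175625586-175625885 (- strand).
Ldha: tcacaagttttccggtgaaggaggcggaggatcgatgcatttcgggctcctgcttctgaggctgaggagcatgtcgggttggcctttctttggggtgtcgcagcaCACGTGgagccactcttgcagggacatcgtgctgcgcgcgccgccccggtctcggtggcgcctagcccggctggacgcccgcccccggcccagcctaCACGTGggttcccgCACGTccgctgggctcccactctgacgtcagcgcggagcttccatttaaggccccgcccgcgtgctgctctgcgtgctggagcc
Pgk1: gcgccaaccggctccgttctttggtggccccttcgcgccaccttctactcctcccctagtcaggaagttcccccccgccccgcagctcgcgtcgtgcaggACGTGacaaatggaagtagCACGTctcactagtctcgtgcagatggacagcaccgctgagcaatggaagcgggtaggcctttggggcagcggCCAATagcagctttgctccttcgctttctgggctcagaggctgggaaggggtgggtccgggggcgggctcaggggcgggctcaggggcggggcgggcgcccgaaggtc
Gapdh: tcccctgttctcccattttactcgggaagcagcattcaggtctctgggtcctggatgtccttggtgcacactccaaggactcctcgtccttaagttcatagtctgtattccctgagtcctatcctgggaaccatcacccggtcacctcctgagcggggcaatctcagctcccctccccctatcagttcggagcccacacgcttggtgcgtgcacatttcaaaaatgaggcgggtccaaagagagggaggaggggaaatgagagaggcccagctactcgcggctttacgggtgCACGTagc
Pkm: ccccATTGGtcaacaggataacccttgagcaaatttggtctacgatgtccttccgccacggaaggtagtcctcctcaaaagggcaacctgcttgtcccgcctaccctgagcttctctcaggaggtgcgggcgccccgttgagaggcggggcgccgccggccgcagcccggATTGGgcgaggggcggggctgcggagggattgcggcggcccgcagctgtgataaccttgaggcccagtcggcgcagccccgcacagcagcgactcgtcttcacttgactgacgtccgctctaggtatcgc
Fh1: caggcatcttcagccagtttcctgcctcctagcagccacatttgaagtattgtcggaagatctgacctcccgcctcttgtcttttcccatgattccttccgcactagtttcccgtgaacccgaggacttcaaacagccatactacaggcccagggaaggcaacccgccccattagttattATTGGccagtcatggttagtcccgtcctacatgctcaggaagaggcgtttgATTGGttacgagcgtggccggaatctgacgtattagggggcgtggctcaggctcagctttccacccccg
A window was found for 32 of the 33 members, all but Idh3a. ACGTG was in 17 of 32 windows of the glycolysis members (53.1%) and in 8 of 18 windows of the pyruvate and TCA members (44.4%), against 19.6% of all 32851 windows. Counted by gene, that is 14 of 20 glycolysis genes (70.0%) and 3 of 12 pyruvate and TCA genes (25%), against 21.8% of all 27025 genes. Counting both strands, the Ldha window holds 5 matches to ACGTG, against 2 in Pgk1 and 1 in Gapdh. The Ldha window also holds CACGTG, the E-box letters, at 2 places, and each of these is an ACGTG match on both strands. CCAAT was in 34.4% of glycolysis windows and 66.7% of pyruvate and TCA windows, against 37.4% of all windows. By gene it was in 8 of 20 glycolysis genes (40.0%) and 7 of 12 pyruvate and TCA genes (58.3%), against 41.1% of all genes. Windows of the same gene can overlap, as several of Ogdh do. A match shows letters in these windows and nothing on whether a factor binds there.

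Cells were gated on marker genes, none of which is a member, into 7 classes: dividing lymphatic (52 and 165 cells in libraries 1 and 2), lymphatic-like (214 and 398), dividing blood (197 and 322), tip-like (97 and 151), capillary-like (134 and 157), artery-like (180 and 183) and vein-like (149 and 133). Together they hold 1023 of 1745 and 1509 of 2877 barcodes, and 15989249 and 26675353 UMIs were counted over all barcodes of libraries 1 and 2. The marker sums that follow describe the gates and are no separate check of cell type, since the same genes drew the classes. All 6 endothelial markers were above 0 in each class, with summed levels of 3395 to 7371 CPM, meaning UMIs per 1000000. The 7 lymphatic markers summed to 12892 to 17571 CPM in both lymphatic classes, against 21.3 to 69.8 CPM in the blood classes. The 7 tip markers reached 2015 and 1684 CPM in tip-like cells, with at most 611 CPM elsewhere. Dividing cells were deeper, with class medians of 12606 to 17346 UMIs per cell, against 5540 to 8873 in the non-dividing classes.

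Libraries differed in handling-sensitive genes. Of 22 immediate-early and stress genes, 20 to 22 were higher in library 2 in each class other than lymphatic-like cells, where 12 were, whereas the median library shift of the members lay between -0.10 and 0.08 on a log2 scale. Markers of other cell types were low but not absent: 9 pericyte markers summed to 34.4 to 107 CPM in the blood classes and 6.63 to 12.8 CPM in the lymphatic classes, with 1 to 7 of them at 0 in a class and library. The 4 chondrocyte markers summed to 79.1 and 66.3 CPM in lymphatic-like cells, against 0 to 16.4 CPM in the blood classes. The 6 fibroblast markers summed to 22.5 to 39.8 CPM in the lymphatic classes and 1.92 to 49.1 CPM in the blood classes. Free RNA was not removed, and 3 barcodes occurred in both libraries.

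Levels of single members are TMM-scaled CPM, and a 3′ UMI counts an mRNA molecule once whatever its length. Gapdh, Pkm, Ldha and Aldoa held 60.5% to 71.8% of the glycolysis UMIs in every class and library. Gapdh was the most abundant of the 33, with 651 to 1400 CPM as class means, but it and Aldoa, Tpi1, Pgk1, Pgam1, Eno1, Pkm, Ldha and Mdh1 have near-identical pseudogene copies in the mouse genome, so their counts can carry an uncertain share of reads. The 3′ tags cannot tell the splice forms of Pkm apart. Slc2a1 had a class mean 5.29 times higher in capillary-like than in lymphatic-like cells, and Pkm one 4.6 times higher in tip-like than in lymphatic-like cells. The sparse genes Pfkfb3, Slc16a1, Pdk1 and Ldhb differed by larger factors between their highest and lowest class, on few UMIs. Ogdh, a subunit of the oxoglutarate dehydrogenase complex, varied least by class means, by 1.15 times between dividing lymphatic and artery-like cells. Together with Dlat, a subunit of the pyruvate dehydrogenase complex whose class means lay between 26.3 and 36.5 CPM, it passed in none of the comparisons here (edgeR quasi-likelihood test).

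Of the 33 members, 30 passed the filter on low counts (at least 10 UMIs at the median library size, here 7.65 CPM). The hexokinase Hk2 (34 UMIs in all gated cells), the aldolase Aldoc (11 UMIs) and the lactate exporter Slc16a3 (75 UMIs) did not and were not tested. A class was counted as above the filter level where at least 1 of its 2 libraries reached it. Slc2a1 did so in lymphatic-like cells through library 1 only, with 12.5 and 6.55 CPM. By this rule 25 of the 30 stood above the level in all 7 classes. The other 5 passed only through some classes, Pfkfb3 through dividing lymphatic, lymphatic-like and vein-like cells, Slc16a1 through dividing blood and vein-like cells, and Pfkm, Ldhb and Pdk1 through the blood classes, so a difference in these genes is partly set by the filter.

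**Figure D1:**
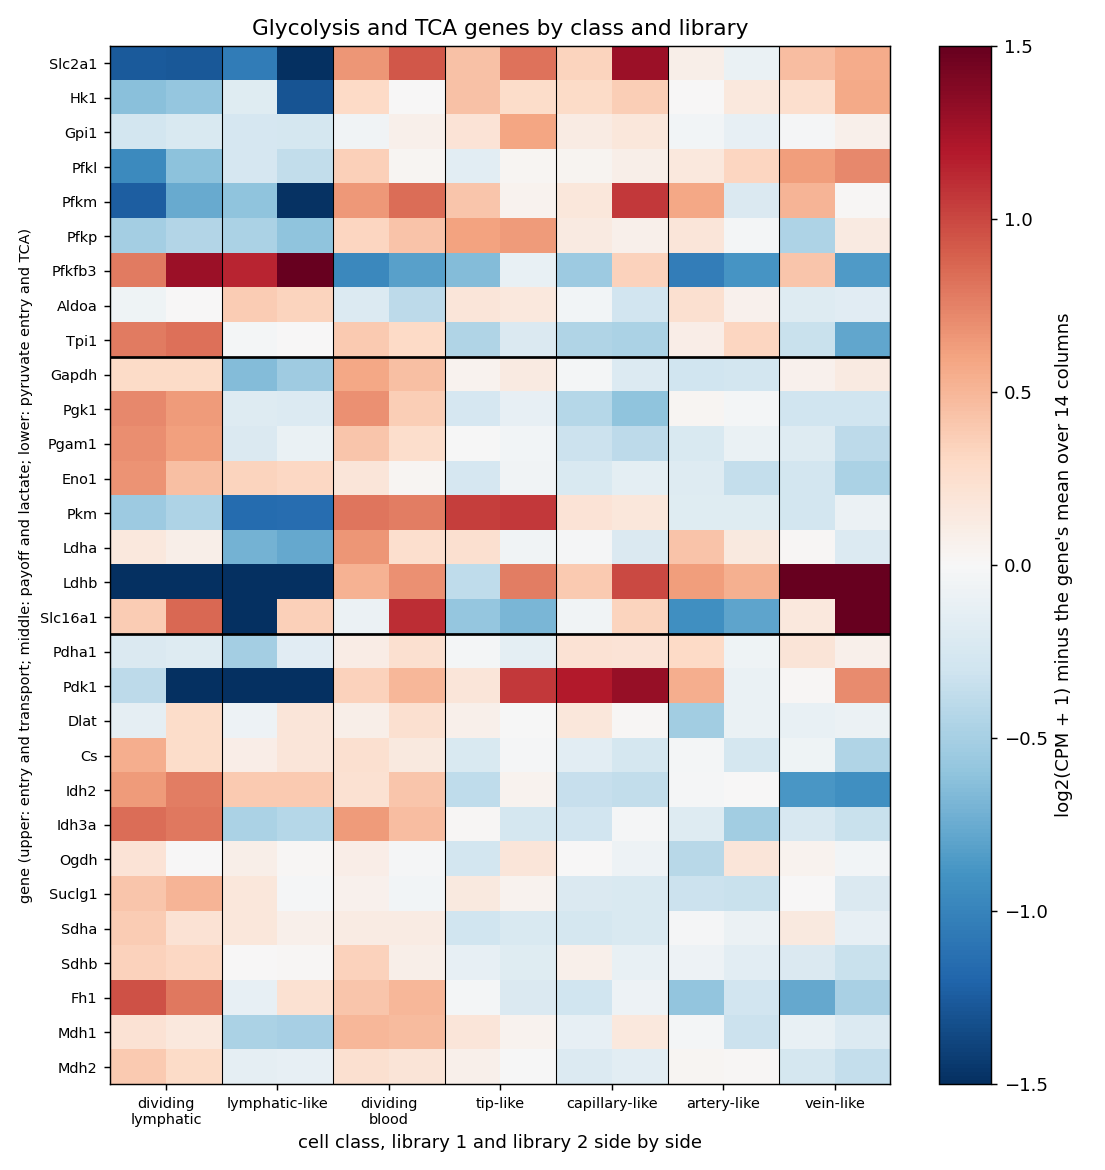
Levels of the 30 tested members (rows, grouped as glycolysis entry, payoff with lactate, and pyruvate entry with TCA) in 7 classes, with libraries 1 and 2 side by side; colour is log2(CPM + 1) minus the gene's mean over the 14 columns, limited to 1.5 either way. Most payoff and TCA genes are red in both dividing classes, with Pkm, Ldhb, Pdk1 and Pdha1 below their means in dividing lymphatic cells. Slc2a1, Pkm, Ldhb and Pdk1 are blue in lymphatic-like cells, and Pkm is darkest red in tip-like cells.

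Isozyme use was described from the UMIs of each family. Hk1 held nearly all hexokinase UMIs: Hk2 had 0 to 3 UMIs per library in each blood class, against 5 of 78 Hk1 and Hk2 UMIs (6.41%, exact 95% interval 2.11% to 14.3%) and 14 of 71 (19.7%, 11.2% to 30.9%) in lymphatic-like cells. Among the phosphofructokinases, which commit sugar to glycolysis, Pfkp held 58.7% and 57.2% of UMIs in tip-like cells, against 48.1% and 44.2% in capillary-like cells, and Pfkl held 65.1% and 59.1% in vein-like cells. Aldoa, which splits the sugar, held at least 99.7% of aldolase UMIs wherever Aldoc was seen at all. Ldhb, the lactate dehydrogenase subunit typical of oxidative tissue, held 4.90% and 4.03% of Ldha and Ldhb UMIs in vein-like cells and 0.384% and 0.229% in lymphatic-like cells. Such intervals cover counting error only.

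The dividing lymphatic cells were compared with lymphatic-like cells to ask which members differ with the cell cycle in the lymphatic lineage. Of 30 tested members 13 were higher and 1 was lower at an adjusted p under 0.05 (edgeR quasi-likelihood test, Benjamini-Hochberg adjustment over 10256 genes), where 14.4% of all genes were higher and 13.3% lower (27.7% in all). The payoff group moved most, with 5 of 8 tested members higher and a median log2 change of 0.84, against -0.06 over all genes. In the pyruvate and TCA group 7 of 13 were higher, with a median of 0.32. In the entry group only Tpi1 was higher and only Aldoa lower, with a median of 0.08. Counted over the 25 members above the filter level in all classes, 13 were higher and 1 lower.

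Gapdh, the glyceraldehyde phosphate dehydrogenase that opens the payoff phase, had 1197 and 1198 CPM in dividing lymphatic cells, against 626 and 676 CPM in lymphatic-like cells (log2 0.88 ± 0.09 SE, adjusted p = 3.56e-07). Ldha, which makes lactate, had 452 and 431 CPM against 249 and 237 CPM in lymphatic-like cells (log2 0.86 ± 0.10, adjusted p = 2e-06). Pgk1, the first ATP-returning step, had 272 and 258 CPM, against 144 and 143 CPM (log2 0.88 ± 0.11, adjusted p = 4.62e-06). In all 3 genes both libraries of dividing cells lay above both of the others. Eno1 and Cs, which did not pass, were separated in the same way. Here and below, such separation describes the values of 2 libraries and is no test of its own. The mutase Pgam1 (log2 0.81) and Pkm, the pyruvate kinase (log2 0.65), rose as well.

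Idh3a, the catalytic subunit of the NAD-linked isocitrate dehydrogenase, had the steepest rise of the TCA members, with 91.0 and 87.6 CPM in dividing lymphatic cells, against 35.9 and 37.1 CPM in lymphatic-like cells (log2 1.28 ± 0.15, adjusted p = 2.76e-06). The cytosolic malate dehydrogenase Mdh1 had 166 and 159 CPM against 102 and 100 CPM in lymphatic-like cells (log2 0.68 ± 0.12, adjusted p = 2.29e-04). Tpi1, which interconverts the 2 triose phosphates, had 293 and 303 CPM, against 167 and 170 CPM (log2 0.82 ± 0.12, adjusted p = 3.08e-05). None of these values overlapped between the classes. Fh1 (log2 0.78), the mitochondrial Mdh2 (0.47), the succinyl-CoA ligase subunit Suclg1 (0.41), the succinate dehydrogenase subunit Sdhb (0.32) and the NADP-linked Idh2 (0.32) also passed. Aldoa fell to 334 and 353 CPM in dividing lymphatic cells, against 455 and 442 CPM in lymphatic-like cells (log2 -0.37 ± 0.10, adjusted p = 6.69e-03).

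Outside the members, the pentose phosphate gene Tkt, a transketolase, was higher (log2 0.84, adjusted p = 4.5e-05), and 8 of 26 tested genes of a further pyruvate and TCA list were higher and 3 lower, with Me2, a malic enzyme, at 0.91 and Mpc1, a pyruvate carrier subunit, at 0.58. Of 16 regulators 1 was higher and 4 lower, with the flow-sensitive Klf2 at -1.35 and the hypoxia factor Epas1 at -1.71. None of 15 hypoxia-induced genes outside glycolysis was higher and 7 were lower. Of the 22 stress genes 17 were lower and none higher. With cells thinned to 3000 UMIs, 8 of the 14 members still passed, all higher, where 1082 of 7928 genes passed. With the more stressed cells of each class and library left out 12 of the 14 members passed, without Aldoa and Sdhb. Pfkl passed as well, and 2153 of 8687 genes did. Pgk1, Tpi1, Gapdh, Ldha, Idh3a, Pkm, Mdh1 and Pgam1 passed in each of the 9 alternative fits run.

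The dividing blood cells were compared in the same way with the mean of the tip-like, capillary-like, artery-like and vein-like cells. Of 30 tested members 15 were higher and 1 lower, against 18.7% of all genes higher and 13.0% lower (31.7% in all). Again the payoff group was high, with 6 of 8 members passing and a median of 0.56, and 8 of 13 pyruvate and TCA members were higher, with a median of 0.33. The entry group had 1 member higher (Tpi1) and 1 lower (Aldoa) and a median of -0.04, and the median over all genes was 0.00. The 16 calls all fell among the 25 members above the filter level in every class.

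Gapdh had 1464 and 1336 CPM in dividing blood cells, against means of 949 and 952 CPM over the 4 non-dividing classes (log2 0.57 ± 0.07, adjusted p = 1.54e-06). Pgk1 had 266 and 214 CPM against 141 and 139 CPM in the non-dividing classes (log2 0.78 ± 0.08, adjusted p = 3.56e-07). Ldha had 642 and 484 CPM, against 459 and 386 CPM (log2 0.42 ± 0.07, adjusted p = 1.96e-04). In each gene both dividing values lay above both non-dividing ones, although Ldha was higher in library 1 in every class. Pgam1 (0.55), Pkm (0.57), Tpi1 (0.62) and Eno1, the enolase (0.35), passed too.

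Fh1 had 91.2 and 96.6 CPM in dividing blood cells, against 51.3 and 56.4 CPM in the non-dividing classes (log2 0.82 ± 0.11, adjusted p = 1.29e-05). Idh3a had 79.2 and 70.0 CPM, against 44.6 and 41.5 CPM (log2 0.79 ± 0.11, adjusted p = 1.89e-05). Idh2 had 192 and 217 CPM, against 126 and 136 CPM (log2 0.67 ± 0.08, adjusted p = 3.93e-06). These mitochondrial enzymes stood apart in both libraries, as did Mdh1 (0.53), the citrate synthase Cs (0.37), Sdhb (0.36), Mdh2 (0.33) and Sdha (0.26), the catalytic subunit of succinate dehydrogenase. Aldoa fell to 303 and 266 CPM in dividing blood cells, against 364 and 339 CPM in the non-dividing classes (log2 -0.30 ± 0.08, adjusted p = 5.88e-03). Among the 16 calls, 12 held with thinned cells (Cs, Sdhb, Eno1 and Aldoa did not), where 1593 of 7928 genes passed. At most 5% mitochondrial UMIs left 11 (not Cs, Sdhb, Sdha, Mdh2 or Eno1) and added Pfkp, where 1728 of 8136 genes passed. Fh1, Idh3a, Idh2, Mdh1, Gapdh, Pgk1, Ldha, Pgam1 and Tpi1 passed in each of the 10 alternative fits run.

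Dividing blood cells carried capillary markers at 3795 and 4111 CPM, between capillary-like (7060 and 6809 CPM) and artery-like cells (1081 and 1289 CPM), so the mix of vessel types differs between the classes compared. Set against capillary-like and tip-like cells alone, 14 members passed (12 higher and 2 lower, where 14.7% of all genes were higher and 9.64% lower, 24.4% in all), and Pkm (log2 0.17, adjusted p = 0.104), Eno1 (0.27, adjusted p = 0.0674) and Cs (0.35, adjusted p = 0.0616) no longer did. Gpi1, which isomerises glucose phosphate, was lower there (-0.27, adjusted p = 0.0378). Against all 4 blood classes again, Tkt was higher (0.56, adjusted p = 1.63e-04), and 19 of 22 stress genes were lower and none higher. Of the 15 hypoxia-induced genes 1 was higher and 5 lower, among them Bnip3 (-1.31), Ddit4 (-0.98) and Ndrg1 (-0.62), and of 16 regulators 2 were higher and 5 lower, among them Epas1 (-0.72), Klf2 (-0.64), Esrra (-0.95) and Arnt (-0.54).

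A difference in size between the dividing effects of the blood and lymphatic lineages was tested directly. None of the 30 members passed (edgeR quasi-likelihood test), where 1.16% of all genes were higher and 0.244% lower (1.4% in all). The nearest was Ldha, whose effect was smaller in the blood lineage by -0.45 ± 0.12 on a log2 scale (adjusted p = 0.0899). A p above the threshold does not show that the effects were alike.

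**Figure D2:**
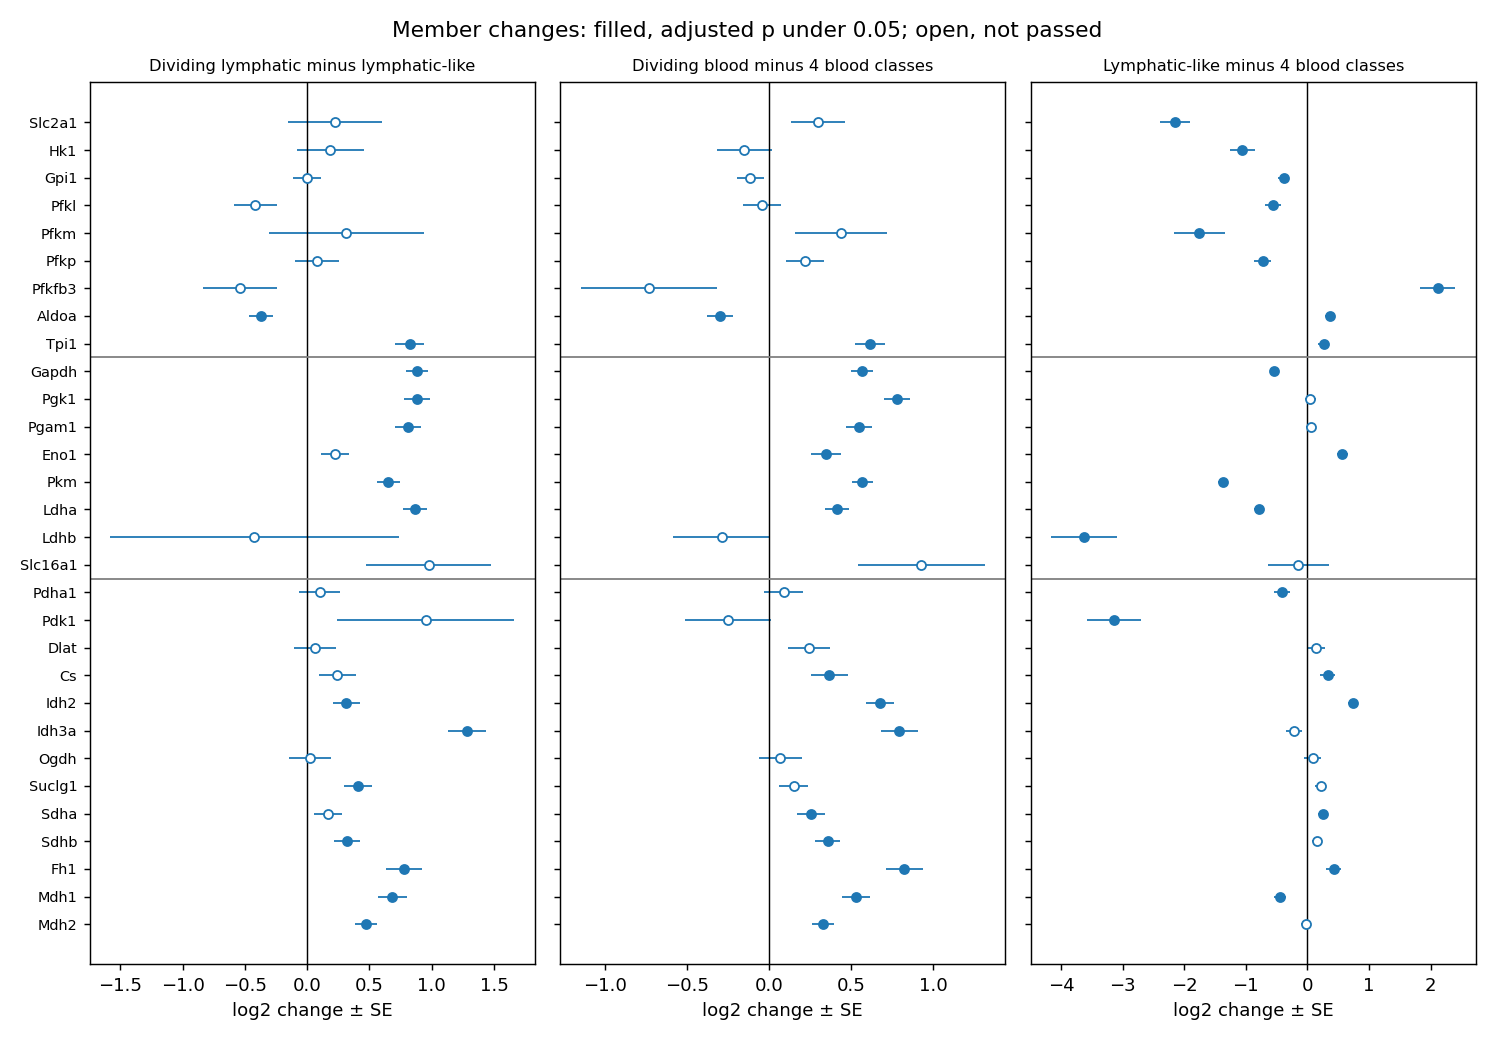
Log2 change ± SE of the 30 tested members in dividing lymphatic minus lymphatic-like cells (left), dividing blood minus the 4 non-dividing blood classes (middle) and lymphatic-like minus those 4 classes (right); filled points passed at an adjusted p under 0.05 and the horizontal axes differ. In both dividing panels the payoff genes from Gapdh to Ldha and most TCA genes lie right of 0. In the right panel the filled points left of 0 are 6 entry genes, Gapdh, Pkm, Ldha, Ldhb, Pdk1, Mdh1 and Pdha1.

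Lymphatic-like cells were then set against the average of the same 4 blood classes, so this comparison and that of the dividing blood cells share the values of those classes. Glycolysis members were mostly lower: 10 of 17 tested fell and 4 rose, with a median of -0.54. Pyruvate and TCA members went both ways, with 4 higher, 3 lower and a median of 0.14. Over all 30 members 8 were higher and 13 lower, against 20.8% and 19.9% of all genes (40.7% in all), and the median over all genes was 0.03. The share passing is high throughout this comparison. Among the 25 members above the filter level in every class, 7 were higher and 10 lower. Of the 13 glycolysis members among these 25, 3 were higher and 8 lower. Among the lower was Slc2a1, which lay under that level in library 2 of lymphatic-like cells.

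The glucose transporter Slc2a1 had 12.5 and 6.55 CPM in lymphatic-like cells, against 34.0 and 44.7 CPM as the mean of the blood classes (log2 -2.15 ± 0.25, adjusted p = 5.68e-07). Taken alone, library 1 gave a change of -1.37 and library 2 of -2.51. Hk1, the hexokinase that traps glucose in the cell, had 35.0 and 15.6 CPM, against 47.5 and 50.9 CPM (log2 -1.05 ± 0.20, adjusted p = 2.35e-04), with -0.42 in library 1 and -1.64 in library 2. Lymphatic values of both genes lay below the blood means in each library, but the size rests on library 2. Of the phosphofructokinases Pfkl (-0.55), Pfkp (-0.73) and the sparse Pfkm (-1.75, with -1.02 in library 1 and -1.69 in library 2) were all lower, as was Gpi1 (-0.39). Pfkm passed the low-count filter only through the blood classes.

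Pkm had 182 and 183 CPM in lymphatic-like cells, against 500 and 511 CPM in the blood classes (log2 -1.37 ± 0.08, adjusted p = 2.09e-11), the smallest p of any member here. The gene lies at chr9:59656368-59679375 on the + strand (GENCODE vM21, GRCm38). Ldha had 249 and 237 CPM, against 459 and 386 CPM (log2 -0.78 ± 0.08, adjusted p = 1.6e-07), and Gapdh 626 and 676 CPM, against 949 and 952 CPM (log2 -0.54 ± 0.07, adjusted p = 4.25e-06). All 3 were lower in both libraries, without overlap. Eno1 went the other way, with 152 and 149 CPM in lymphatic-like cells, against 102 and 101 CPM in the blood classes (log2 0.57 ± 0.09, adjusted p = 3.5e-05), and Aldoa (0.36) and Tpi1 (0.26) were also higher.

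Pfkfb3, whose product makes the activator of phosphofructokinase, was the glycolysis gene most raised in lymphatic-like cells. It had 13.9 and 24.0 CPM (29 and 88 UMIs) there, against 4.33 and 4.58 CPM in the blood classes (log2 2.12 ± 0.28, adjusted p = 4.35e-06). Pfkfb3 held 80.6% and 86.3% of the UMIs of its 4-gene family in lymphatic-like cells (exact 95% intervals 64.0% to 91.8% and 78.0% to 92.3%). Dividing lymphatic cells had 10.6 and 15.5 CPM, and tip-like cells 3.32 and 5.29 CPM from 3 and 8 UMIs. The gene lies at chr2:11471433-11554077 on the - strand. Both lymphatic classes thus stood above every blood class in both libraries, while Pfkfb3 passed the filter partly because of its lymphatic level.

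Ldhb and Pdk1 passed the low-count filter only through the blood classes, where they were higher. Their tests here are therefore partly set by that filter. Ldhb had 2 and 2 UMIs in lymphatic-like cells, against 49 and 49 in the 4 blood classes. Per UMI counted, the ratio of lymphatic-like to blood cells was 0.0933 (exact 95% interval 0.0110 to 0.356) in library 1 and 0.0551 (0.00649 to 0.210) in library 2 (adjusted p = 1.32e-05). Pdk1, the kinase that switches off pyruvate dehydrogenase, had 2.40 and 1.09 CPM (5 and 4 UMIs), against 13.2 and 16.2 CPM (log2 -3.14 ± 0.44, adjusted p = 7.13e-06). Its change was -1.98 in library 1 alone and -2.92 in library 2 alone, on log levels with a prior count of 2. In lymphatic-like cells Pdk3 made up most of the 4 kinases' UMIs, with 65.7% and 56.4%, against 32.5% and 21.7% in artery-like cells.

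Of the TCA members Idh2 had 215 and 214 CPM in lymphatic-like cells, against 126 and 136 CPM in the blood classes (log2 0.74 ± 0.09, adjusted p = 6.29e-07). Fh1 (0.43), Cs (0.33) and Sdha (0.25) were higher too, whereas Mdh1 had 102 and 100 CPM, against 141 and 136 CPM (log2 -0.45 ± 0.10, adjusted p = 7.71e-04), and Pdha1, a subunit of pyruvate dehydrogenase, was lower (-0.41). In the further pyruvate and TCA list 9 of 26 tested genes rose, among them the glutamate dehydrogenase Glud1 (1.38) and the malic enzymes Me1 (2.54) and Me2 (1.46), and 1 fell. H6pd, an enzyme of the endoplasmic reticulum that uses glucose phosphate, was higher by 2.46.

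Of the regulators the hypoxia factors Epas1 and Hif1a were lower. Epas1 had 45.5 and 44.7 CPM in lymphatic-like cells (log2 -2.91, adjusted p = 7.66e-13) and Hif1a had 55.1 and 60.8 CPM (-1.43, adjusted p = 9.97e-10), while Egln3, a prolyl hydroxylase that acts on them, was higher (1.95, adjusted p = 1.19e-05). Hypoxia-induced genes outside glycolysis were split, with 5 of 15 higher and 7 lower. Beside these values, 14 of 22 stress genes were lower and 1 higher, and pericyte markers summed to 8.51 and 6.63 CPM, against 34.4 to 107 CPM in the 4 blood classes. Chondrocyte markers went the other way, with 79.1 and 66.3 CPM in lymphatic-like cells, against 0 to 16.4 CPM in the 4 blood classes. The part of these signals in the members' changes was not tested. With at most 5% mitochondrial UMIs, 11 of the 19 called members that could be tested still passed, where 2121 of 8136 genes passed. With more stressed cells left out 15 of 18 did and Sdhb was called as well, where 2876 of 8687 genes passed. In all 9 alternative fits 9 members were tested and passed (Eno1 and Idh2 higher, Slc2a1, Gpi1, Pfkl, Gapdh, Pkm, Ldha and Mdh1 lower). The sparse Pfkfb3, Pfkm, Ldhb and Pdk1 passed wherever they were tested but fell below the low-count filter in some fits. In the main fit they passed that filter only through some classes.

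**Figure D3:**
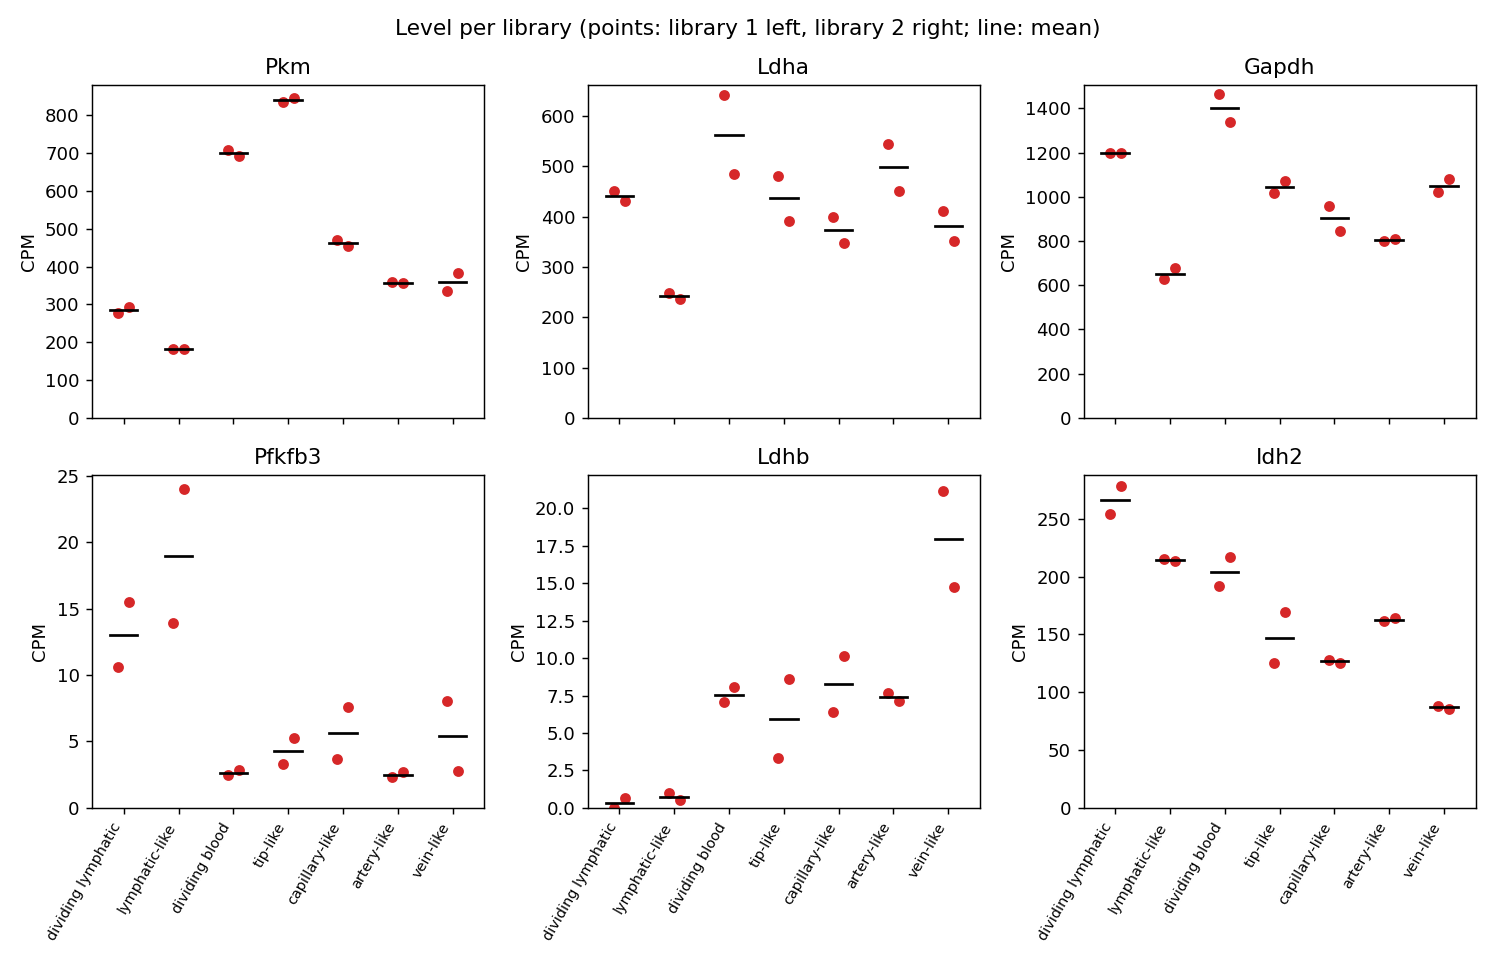
CPM per library (points, library 1 left and library 2 right, with the mean as a line) of Pkm, Ldha, Gapdh, Pfkfb3, Ldhb and Idh2 in 7 classes. Pkm is highest in tip-like cells (834 and 847 CPM) and lowest in lymphatic-like cells, Pfkfb3 is highest in the lymphatic classes, Ldhb in vein-like cells, and Idh2 is lowest in vein-like cells.

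Tip-like cells, which lead growing sprouts, were compared with capillary-like cells. Pkm was the 1 member of 30 that passed, where 2.28% of all genes were higher and 2.06% lower (4.34% in all). It had 834 and 847 CPM in tip-like cells, against 470 and 456 CPM in capillary-like cells (log2 0.86 ± 0.09, adjusted p = 7.27e-06), and it passed in all 10 alternative fits. Pericyte markers summed to 107 and 102 CPM in tip-like cells, against 48.3 and 34.4 CPM in capillary-like cells, and their part in the result was not tested. The next highest class was dividing blood cells, with 709 and 693 CPM.

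The other glycolysis genes gave values that did not pass. Pfkp had 97.5 and 99.9 CPM in tip-like cells, against 70.4 and 67.5 CPM in capillary-like cells (log2 0.52 ± 0.18, adjusted p = 0.119), Aldoa had a log2 value of 0.34 (adjusted p = 0.0768) and Pgk1 of 0.35 (adjusted p = 0.173). The median over the 17 tested glycolysis members was 0.15 and over the 13 pyruvate and TCA members 0.04, against -0.01 over all genes. Pfkfb3 had a log2 value of -0.37 ± 0.62 on 3 to 9 UMIs per library and class, too few to show a difference of that size. Slc2a1, at 36.6 and 47.6 CPM against 33.8 and 66.7 CPM in capillary-like cells, overlapped between the classes. Outside the members, the hypoxia-induced Ankrd37 was higher (1.02, adjusted p = 8.04e-03), Ndrg1 (-0.55) and Ddit4 (-0.97) were lower, Klf2 was lower (-0.76, adjusted p = 2.18e-03), and 6 of 22 stress genes were lower. No gene of the further glycolysis, further TCA and pentose phosphate lists passed.

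Next, artery-like cells were set against vein-like cells, the ends of the arteriovenous axis. Of 30 members 5 were higher and 3 lower, where 9.14% of all genes were higher and 9.93% lower (19.1% in all). Counted over the 25 members above the filter level in every class, 5 were higher and 1 lower. Idh2 (chr7:80094846-80115392, - strand) differed most firmly, with 161 and 164 CPM in artery-like cells, against 88.4 and 85.9 CPM in vein-like cells (log2 0.90 ± 0.14, adjusted p = 6.4e-05), and was the 1 member that passed in all 9 alternative fits. Tpi1 had 182 and 213 CPM in artery-like cells, against 135 and 98.9 CPM in vein-like cells (log2 0.74 ± 0.14, adjusted p = 6.52e-04). These values did not overlap.

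Ldha had 545 and 451 CPM in artery-like cells, against 411 and 352 CPM in vein-like cells (log2 0.38 ± 0.10, adjusted p = 0.0103). Ldhb had 7.68 and 7.12 CPM (10 and 8 UMIs), against 21.2 and 14.8 CPM (29 and 16 UMIs) in vein-like cells (log2 -1.30 ± 0.44, adjusted p = 0.0433). In the main fit the 2 lactate dehydrogenase subunits thus differed in opposite directions. Neither call held with classes from Leiden clusters, without the library as a block or with at most 5% mitochondrial UMIs. Gapdh was lower, with 799 and 808 CPM in artery-like cells, against 1022 and 1079 CPM in vein-like cells (log2 -0.39 ± 0.09, adjusted p = 3.78e-03), and Aldoa (0.33) and Mdh2 (0.34) were higher. The lactate transporter Slc16a1 passed the low-count filter only through dividing blood and vein-like cells. It had 2 and 2 UMIs in artery-like cells, against 6 and 15 in vein-like cells (adjusted p = 0.0308). Its ratio per UMI counted was 0.353 (exact 95% interval 0.0349 to 1.98) in library 1 and 0.137 (0.0151 to 0.587) in library 2, so library 1 alone does not separate the classes. Without the library as a block 3 members passed, where 1472 of 10256 genes passed, against 1955 with it. With at most 5% mitochondrial UMIs 2 members passed, where 889 of 8136 genes did.

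Of 16 regulators 2 were higher and 4 lower in artery-like cells, and 10 did not pass. Epas1 had 751 and 891 CPM in artery-like cells, against 207 and 249 CPM in vein-like cells (log2 1.85, adjusted p = 4.26e-09). Hif1a ran the other way, with 105 and 117 CPM in artery-like cells, against 172 and 256 CPM in vein-like cells (log2 -0.93, adjusted p = 2.12e-05). Of 15 hypoxia-induced genes outside glycolysis 6 were higher and none lower, among them Bnip3 (1.66), Higd1a (0.74), P4ha2 (1.93) and Vegfa (2.31, from 19 and 16 UMIs in artery-like cells, against 1 and 6 in vein-like cells). Bsg, the chaperone of lactate transporters, was higher (1.15, adjusted p = 6.59e-08), and Pdk4, another kinase of pyruvate dehydrogenase, was lower (adjusted p = 4.79e-04). Pdk4 had 2 and 2 UMIs in artery-like cells, against 8 and 36 in vein-like cells, a ratio per UMI counted of 0.265 (exact 95% interval 0.0274 to 1.33) in library 1 and 0.0569 (0.00663 to 0.221) in library 2, so the size rests on library 2. Beside these, 9 of 22 stress genes were lower and 1 higher. With more stressed cells left out 3 members passed, where 1293 of 8687 genes did. The part of stress in the other calls was not tested further.

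Capillary-like cells were set against the mean of both larger vessel classes, artery-like and vein-like. Of 30 members Pkm was higher and Pgk1 lower, where 5.21% of all genes were higher and 4.75% lower (9.96% in all). Pkm had 470 and 456 CPM in capillary-like cells, against 347 and 370 CPM in the larger vessels (log2 0.37 ± 0.08, adjusted p = 3.92e-03), and Pgk1 had 123 and 108 CPM, against 152 and 148 CPM (log2 -0.37 ± 0.12, adjusted p = 0.0462). Neither passed with at most 5% mitochondrial UMIs, where 433 of 8136 genes did, and Pgk1 lost its direction with classes from clusters (0.03). Pericyte markers summed to 48.3 and 34.4 CPM in capillary-like cells, against 65.4 to 100 CPM in the larger vessels, and their part was not tested. Bsg (-1.11) and Klf2 (-1.08) were lower and Egln1, the main prolyl hydroxylase of the hypoxia factors, was higher (0.84). Capillary-like, tip-like, artery-like and vein-like values enter several of these comparisons, which are therefore not independent.

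The summed levels of the tested and untested members were set side by side as a description, without a test. Summed glycolysis members were at 3633 ± 3.50 CPM in dividing lymphatic, 2505 ± 10.2 in lymphatic-like, 4280 ± 303 in dividing blood, 3860 ± 84.6 in tip-like, 3059 ± 137 in capillary-like, 3122 ± 84.8 in artery-like cells and 3121 ± 21.7 CPM in vein-like cells (SD, n = 2 libraries). Dividing blood cells were highest and lymphatic-like cells lowest, and the capillary-like, artery-like and vein-like sums lay within their spread of each other. Summed pyruvate and TCA members (without the inhibitor Pdk1) were at 1699 ± 36.5 CPM in dividing lymphatic, 1277 ± 6.72 in lymphatic-like, 1529 ± 23.5 in dividing blood, 1237 ± 9.37 in tip-like, 1167 ± 14.1 in capillary-like, 1187 ± 16.9 in artery-like cells and 1069 ± 64.7 CPM in vein-like cells. Both dividing classes lay above all others, and 9 of the 13 members were highest in dividing lymphatic cells.

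The ratio of the sums, glycolysis over TCA, was lowest in lymphatic-like cells (1.96 and 1.96 in libraries 1 and 2) and dividing lymphatic cells (2.11 and 2.17). It was highest in tip-like cells (3.09 and 3.15), with dividing blood cells at 2.91 and 2.69, capillary-like cells at 2.73 and 2.52, artery-like cells at 2.65 and 2.61 and vein-like cells at 2.79 and 3.06. Lymphatic-like minus blood cells gave a log2 difference of -0.52 ± 0.01 (SD over 2 libraries), and -0.27 with Gapdh and Pkm left out of the sum. For tip-like minus capillary-like cells the difference was 0.25 ± 0.10, 0.14 without those 2 genes, 0.36 with thinned cells and 0.05 with classes from Leiden clusters. By library, 53.5% to 65.7% of gated capillary-like and tip-like cells fell in the cluster of the same name, so the size of this difference depends on how the classes are drawn. Dividing minus non-dividing cells gave -0.01 ± 0.08 in the blood lineage and 0.12 ± 0.03 in the lymphatic lineage, where the summed glycolysis members differed by 0.39 and 0.54 and the summed TCA members by 0.40 and 0.41 in these lineages. The difference in the lymphatic lineage was -0.05 without Gapdh and Pkm, 0.05 with Leiden clusters and 0.22 with thinned cells. Cells with S-phase markers only and cells with G2 and M markers showed no steady order: in library 1 dividing blood cells had 4169 and 4593 CPM of glycolysis UMIs in these 2 phases, and in library 2 they had 4126 and 3909 CPM.

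**Figure D4:**
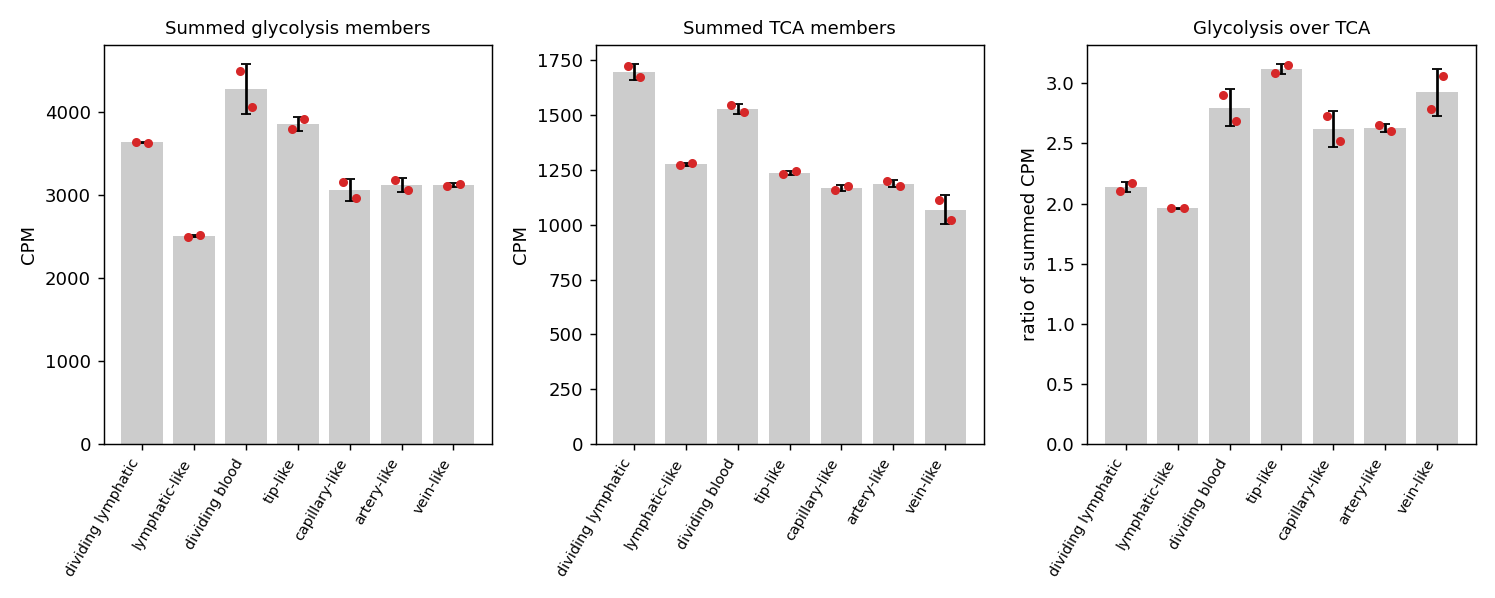
Summed CPM of glycolysis members (left), of pyruvate and TCA members without Pdk1 (middle) and their ratio (right) in 7 classes; bars are means of 2 libraries, error bars SD and points the libraries. The ratio is lowest in the lymphatic classes and highest in tip-like cells as gated here, and TCA sums are highest in the dividing classes.

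In UMIs per cell the dividing classes stood further apart, and the median UMI total per cell was also higher there. Dividing lymphatic cells held 66.1 and 65.3 glycolysis UMIs per cell, against 24.4 and 23.1 in lymphatic-like cells, and dividing blood cells held 64.8 and 57.9, against 35.4 and 39.3 in tip-like and 23.0 and 18.8 in artery-like cells. CPM values give the share of a cell's mRNA and these values its yield, and the 2 cannot be told apart from capture in these data.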

How the data were processed

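Single cells were captured with the Chromium 3′ v3 chemistry and 2 mRNA matrices of UMI counts were deposited by the authors. The submitters' processing notes name Cell Ranger, mm10 and Seurat 3.0.2, with no role for each. The sources used here do not state how barcodes were chosen for the deposited counts. Cells with at least 500 genes and at most 10% mitochondrial UMIs were gated on 122 markers in 18 sets. At least 3 of 6 endothelial markers were required, lymphatic cells needed 4 of 7 lymphatic markers, dividing cells 5 of 10 S-phase or 4 of 10 G2 and M markers, and the other blood cells a class score of 0.2 with a lead of 0.3. Cells that met no gate were left out, no doublet caller was run, and lymphatic cells with 6 or more capillary markers were set aside.

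For each class, the UMIs of a library were added up and entered edgeR 4.0.16 (R 4.3.3; glmQLFit and glmQLFTest, TMM scaling, filterByExpr, Benjamini-Hochberg over 10256 genes), with the library as a block, since all classes of a library come from the same animals. CPM were computed here and scaled by TMM. SE is the log2 change divided by the root of the F statistic. A comparison with several classes uses the mean of their log2 levels, while printed CPM are means of class CPM. Cells number 52 to 398 per class and library, and total UMIs 15989249 and 26675353. The code was tested on simulated data. Alternatives were DESeq2 1.42.0, no low-count filter, no replicate block, stricter gates, Leiden clusters (scanpy 1.11.5), at most 5% mitochondrial UMIs, thinning to 3000 UMIs, and leaving out stressed cells by the library median or, chosen after seeing the data, by the class median. The genes, lists and comparisons were chosen with earlier results of these data known. All 33 members are reported, and of each other list at most the 4 genes with the smallest adjusted p among those that passed. One gene of the further lists is not reported here.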

Additional observations from a re-analysis of the deposited data

Results flagged for a closer look

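The difference between the dividing effects of the blood and lymphatic lineages passed for 3 genes of the accompanying lists, none of them a glycolysis or TCA member (edgeR quasi-likelihood test, adjusted over all genes). Each was flagged by that test of the difference itself.

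Adm, a hypoxia-induced peptide hormone gene, had a difference of 4.6 on a log2 scale (adjusted p = 0.0136). It had 1 and 3 UMIs in dividing lymphatic cells, against 51 and 24 in lymphatic-like cells, a ratio per UMI counted of 0.0419 (exact 95% interval 0.00104 to 0.244) in library 1 and 0.155 (0.0299 to 0.511) in library 2. Dividing blood cells had 26 and 55 UMIs of Adm and averaged 10.6 ± 2.01 CPM (SD, n = 2 libraries), against 45.4 and 36.4 CPM in tip-like, 14.6 and 13.5 CPM in capillary-like, 0.768 and 6.23 CPM in artery-like, and 0.730 and 0 CPM in vein-like cells, so the average of the blood classes mixes very unlike levels.

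Klf2, a flow-sensitive transcription factor, had a difference of 0.71 (adjusted p = 0.038), with 575 and 954 CPM in dividing lymphatic cells, against 1995 and 1886 CPM in lymphatic-like cells. Junb, an immediate-early gene, had a difference of 0.93 (adjusted p = 0.0131), with 323 and 603 CPM in dividing lymphatic cells, against 1260 and 1384 CPM in lymphatic-like cells. Both dividing values were higher in library 2, as were 20 of 22 stress genes in that class, and the part of this shift in the differences was not tested.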

How the results depend on the processing

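Of 62 calls of a member in a comparison, 32 passed with the same sign in every alternative fit that tested them. The library block, which pairs classes from the same animals, moved the members' counts to 3 of 8 (artery-like minus vein-like) and 1 of 2 (capillary-like minus larger vessels) when left out. Over all 10256 genes, leaving the block out gave 1472 against 1955 (artery-like minus vein-like) and 754 against 1021 (capillary-like minus larger vessels). In tip-like minus capillary-like cells it gave 195, against 445 with the block. For artery-like minus vein-like members DESeq2 gave 4, at most 5% mitochondrial UMIs 2, thinned cells 5 and the class stress limit 3. For the capillary comparison no low-count filter gave 4 members, DESeq2 1, stricter gates 1, Leiden clusters 6, the mitochondrial limit 0 and thinning 1. Lymphatic-like minus blood members fell to 11 with the mitochondrial limit, and dividing lymphatic members to 8 with thinning. Of the 16 dividing blood calls 12 held with thinning and 11 with the mitochondrial limit.

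Counts over all genes, main values first, were as follows. The main and DESeq2 fits tested 10256 genes. Leiden clusters left 11029 to test, the mitochondrial limit 8136, thinning 7928 and the class stress limit 8687. Tip-like minus capillary-like had 445, with 241 by DESeq2, 287 with the mitochondrial limit, 215 thinned and 254 with the class stress limit. Artery-like minus vein-like had 1955, with 1289, 889, 1245 and 1293 under the same settings. The capillary comparison had 1021, with 1804 by Leiden clusters, 433 with the mitochondrial limit and 636 thinned. It had 698 by DESeq2, 866 of 9994 with stricter gates and 1233 of 17503 with no low-count filter. Lymphatic-like minus blood had 4171, with 2121 under the mitochondrial limit and 2601 thinned. Dividing blood had 3254, with 1815 by DESeq2, 1728 under the mitochondrial limit and 1593 thinned, and dividing lymphatic had 2839, with 1470 by DESeq2 and 1082 thinned.

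Log2 ratios of glycolysis to TCA sums moved as well. With Leiden clusters they were 0.05 (tip-like minus capillary-like, 0.25 before), 0.06 (capillary, -0.08, reversed), -0.46 (lymphatic, -0.52) and 0.05 (dividing lymphatic, 0.12). Thinning gave 0.36 for tip-like, -0.54 for lymphatic and 0.22 for dividing lymphatic cells, and stricter gates gave -0.55 for lymphatic cells. The mitochondrial limit gave -0.47 for lymphatic and 0.02 for dividing blood cells (-0.01, reversed), the class stress limit 0.02 for dividing blood cells (reversed) and the library stress limit 0.08 for dividing lymphatic cells. Without Gapdh and Pkm the values were 0.14 (tip-like), 0.04 (artery-like minus vein-like, -0.15 before, reversed), -0.27 (lymphatic), -0.15 (dividing blood) and -0.05 (dividing lymphatic, reversed). Leaving out 1 library gave -0.17 to 0.0 for the capillary comparison, -0.07 to 0.05 for dividing blood cells, 0.18 to 0.32 for tip-like cells, -0.23 to -0.07 for artery-like minus vein-like, -0.53 to -0.52 for lymphatic and 0.10 to 0.15 for dividing lymphatic cells. By Leiden clusters single genes changed sign: Pkm gave 0.37 in artery-like minus vein-like, and Pgk1 gave 0.03, Pgam1 0.34 and Suclg1 0.35 in the capillary comparison. Only Pgk1 had passed in the main fit of these comparisons. By Leiden clusters Pkm, Pgam1 and Suclg1 passed with the changed sign. In libraries 1 and 2 alone the gated classes gave 0.09 and -0.10 for Pkm, -0.11 and -0.15 for Pgam1, and -0.05 and 0.04 for Suclg1. The cause of these changes was not tested. The library stress limit left 18 vein-like cells in library 2 and the mitochondrial limit left 18 dividing lymphatic cells in library 1, so comparisons with those classes were not run there. Genes with a few UMIs per class, such as Pfkfb3 in tip-like cells, are limited by depth.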
